A study of Ciona robusta with 8 samples.

Results

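The comparison of Tcf-targeted with control cells at 18 hours post fertilization (hpf) comprised 4 of the 8 RNA-sequencing libraries of the series. They were chosen by their titles, which give the guide RNA (gRNA) and the time, with 2 libraries of Tcf gRNA and 2 of control gRNA. The cells were trunk ventral cells of Ciona robusta, labelled as multipotent cardiopharyngeal progenitors and sorted as 200 to 800 cells per sample, from which 250 to 2000 pg of total RNA entered cDNA synthesis. Both groups had received a CRISPR/Cas9 gRNA, and the groups differ, as far as the labels say, only in its target. The sequences of the gRNAs, the promoter that drove Cas9 and the share of edited alleles are not stated in the labels, and neither is whether the replicates of a guide are separate electroporations. Replicate spread, on which all p-values rest, may thus be technical. The 4 remaining libraries, of the same guides at 15 hpf, entered only the filter, the scaling, the estimate of spread and the values set beside those of 18 hpf.

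Tcf, of the Tcf/Lef protein family, binds DNA and carries the nuclear output of canonical Wnt signalling: with beta-catenin bound it activates target genes, and without it, together with Groucho-type co-repressors, it holds them off. In ascidians the trunk ventral cells are the progenitors of the heart and of the pharyngeal muscles of the atrial siphon, and they divide asymmetrically to separate these fates. A guide against Tcf asks which transcripts of these progenitors depend on that effector.

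Transcripts are given by the identifier of their gene model in the KH gene set of Ciona. The files pair no identifier with a gene name, and 0 of the 15232 models matched any of the 21486 genes in the reference table supplied for names. The model of Tcf itself, the markers of trunk ventral cells and of neighbouring cell types, and the members of the Wnt and FGF pathways could therefore not be located among the models, and the cell type of the label could not be checked. Whether a model reported below, a lower one included, is that of the targeted gene itself was likewise not checked. Of the models, 4 are named by identifier, with no function attached to them, and others are described by their values.

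The totals of the 4 libraries differed by up to 1.46-fold, while the share taken by the most abundant models was similar. Totals were 9556959 and 6554315 counts in control replicates 1 and 2 and 7763508 and 7764525 counts in Tcf replicates 1 and 2. One count was worth 0.105 to 0.142 CPM (counts scaled to a common library total) after scaling of the totals by the trimmed mean of M-values (TMM). At least 1 count was found for 92.3% and 93.9% of the models in control and for 95.9% and 92.8% in Tcf libraries, so that Tcf replicate 1 had the broadest detection. The 100 most abundant models took 32.3% to 33.0% of the counts in every one of the 4 libraries.

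A single model, KH.C6.71, was called different between the guides. It was counted 2048 and 1314 times in the control libraries and 511 and 647 times in the Tcf libraries. Its levels were 214.6 and 186 CPM in control replicates 1 and 2 and 60.5 and 81.2 CPM in Tcf replicates 1 and 2. Both Tcf libraries lay below both control libraries, and the higher Tcf library had 0.436 times the level of the lower control library. The means were 200 ± 20.2 CPM and 70.8 ± 14.7 CPM (SD, n = 2 each), a log2 fold change of -1.50 (SE 0.17, 95% interval -1.88 to -1.13), or 2.83-fold lower (adjusted p = 0.0176, edgeR's quasi-likelihood test). It was the only call among 11970 tested models, 0.00835% of them, and no model was called higher. In bulk samples, fewer cells that carry a transcript and less of it per cell cannot be told apart.

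The size of this difference changed less than its adjusted p between analyses. Over 18 alternative analyses the log2 fold change of KH.C6.71 stayed between -1.74 and -1.30, and 15 of them called it. The call was lost without Tcf replicate 1 (log2 fold change -1.30, adjusted p = 0.552), with the 4 libraries of 18 hpf alone (adjusted p = 0.108) and without robust moderation of the spread (adjusted p = 0.0723, edgeR in each case). The adjusted p of the alternatives ran from 3.26e-12 to 0.552.

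**Figure D1:**
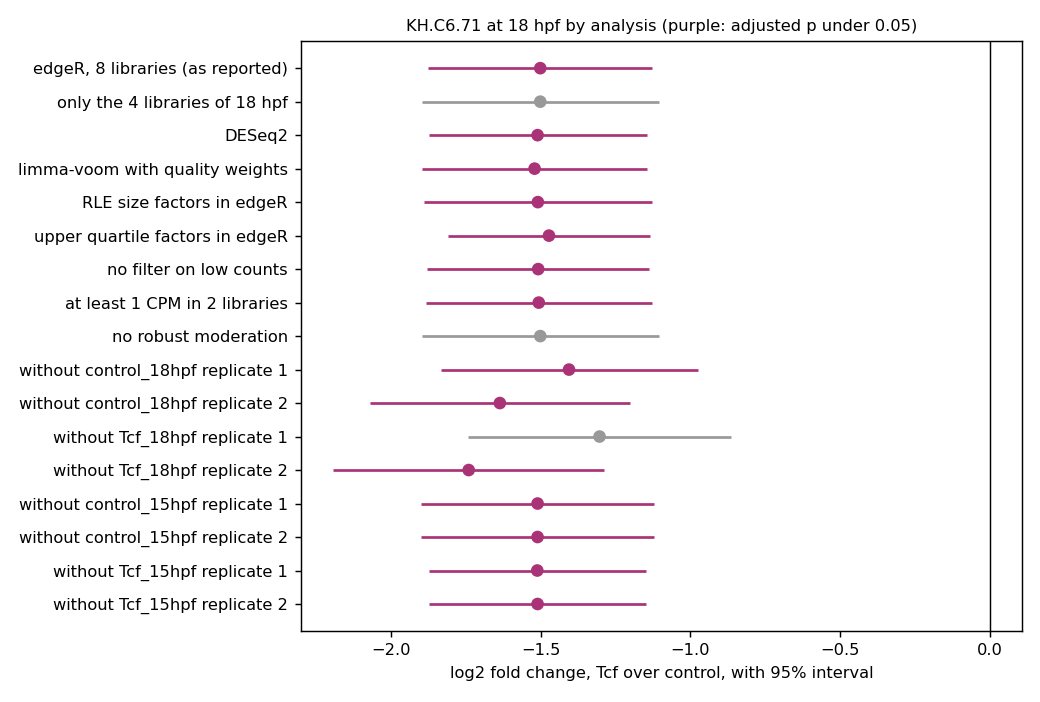
Log2 fold change of KH.C6.71 (Tcf over control gRNA, 18 hpf) with its unadjusted 95% interval in the reported analysis and 16 of its alternatives, purple where the adjusted p was under 0.05. The estimates lie between -1.74 and -1.30, and the 3 grey ones did not pass the threshold.

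At 15 hpf the same model stood at 257.6 and 270.8 CPM in control and 47.7 and 60.4 CPM with the Tcf gRNA, so that the 2 guides did not overlap at either time. The difference on the log2 scale was -2.29 (SE 0.18) at 15 hpf. The interaction of guide and time, which tests whether the difference at 18 hpf differs from that at 15 hpf, was 0.79 for KH.C6.71 (SE 0.24, unadjusted p = 0.00645, adjusted p = 0.959, edgeR's quasi-likelihood test), toward a smaller difference at 18 hpf that did not pass the threshold.

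KH.C4.404 had the second smallest p and did not pass the threshold. It was counted 60 and 28 times in control and 9 and 3 times in Tcf libraries, which gives levels of 6.29 and 3.96 CPM against 1.06 and 0.376 CPM. The guides did not overlap, but the Tcf values rest on few counts. Its log2 fold change was -2.81 (SE 0.45, 95% interval -3.79 to -1.83, adjusted p = 0.258, edgeR). It passed in 3 of 18 alternatives, over which the adjusted p ran from 0.000146 to 1. Among these, DESeq2 gave an adjusted p of 0.000146 and leaving out control replicate 2 gave 0.0465. At 15 hpf it stood at 99.1 and 130.9 CPM under the control gRNA and at 29.6 and 40.4 CPM under the Tcf gRNA, again without overlap (log2 fold change -1.72, SE 0.27, adjusted p = 0.109, edgeR). Under both guides its levels at 18 hpf lay below those at 15 hpf, and the interaction was -1.09 (SE 0.54, adjusted p = 0.989, edgeR).

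Among models with higher values in Tcf libraries, KH.C9.252 and KH.C3.443 had the smallest p, and neither passed the threshold. KH.C9.252 stood at 22.7 and 18.5 CPM in control replicates 1 and 2 and at 37.6 and 39.0 CPM in Tcf replicates 1 and 2 (log2 fold change 0.89, SE 0.18, 95% interval 0.50 to 1.28, adjusted p = 0.684, edgeR). At 15 hpf it had 80.4 and 72.2 CPM under the control gRNA and 83.3 and 92.3 CPM under the Tcf gRNA, which did not overlap either. DESeq2 was the one alternative of 18 that called it at 18 hpf (adjusted p = 0.0355, range over alternatives 0.0355 to 1).

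KH.C3.443 was the most abundant of the 4 in counts. It stood at 606.6 and 517.9 CPM in control replicates 1 and 2 and at 784.9 and 839.2 CPM in Tcf replicates 1 and 2 (log2 fold change 0.53, SE 0.11, 95% interval 0.28 to 0.78, adjusted p = 0.706, edgeR), and DESeq2 was again the one alternative that called it (adjusted p = 0.0477, range 0.0477 to 1). At 15 hpf the order was the opposite, with 2327 and 2679 CPM under the control gRNA and 1995 and 1950 CPM under the Tcf gRNA. The guides did not overlap at either time. The interaction was 0.87 (SE 0.16, unadjusted p = 0.000143, adjusted p = 0.285, edgeR) and passed in 1 of 17 alternatives, with DESeq2 (adjusted p = 0.0035).

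**Figure D2:**
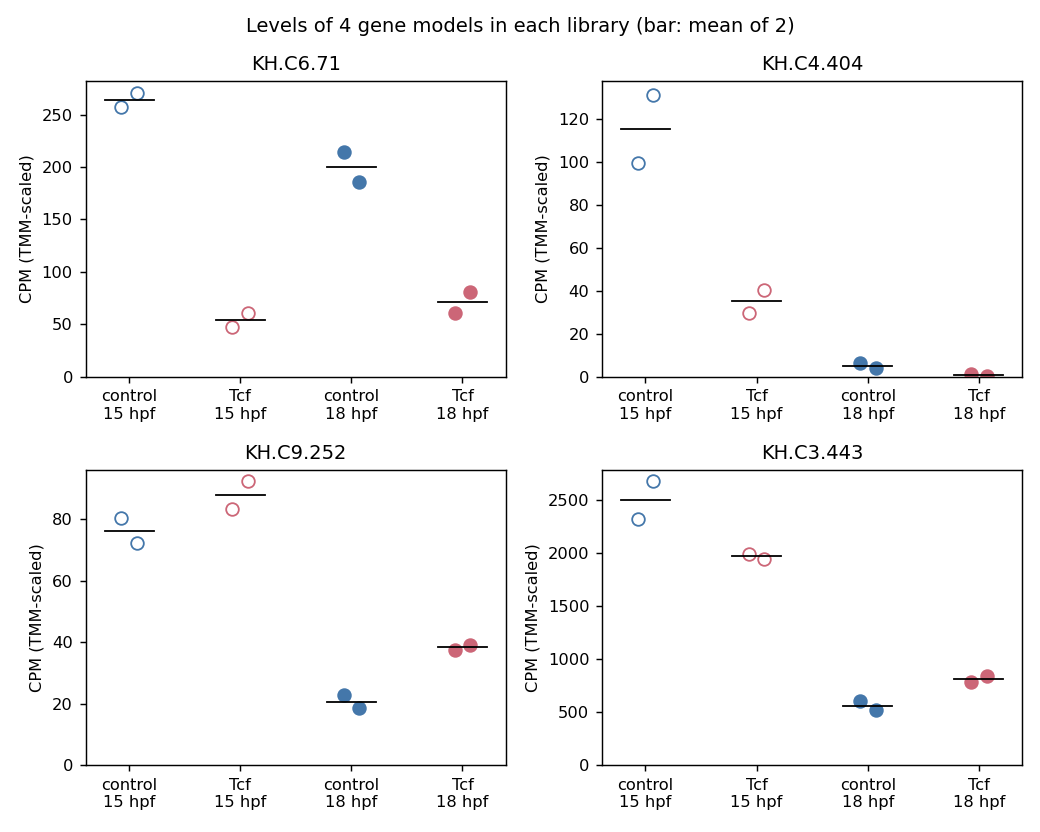
TMM-scaled CPM of 4 gene models in every library, with control gRNA in blue, Tcf gRNA in red, 15 hpf as open and 18 hpf as filled circles, and a bar at the mean of 2 libraries. KH.C6.71 lies lower in Tcf libraries at both times, while KH.C3.443 lies lower in Tcf libraries at 15 hpf and higher at 18 hpf; of the 4 models, KH.C6.71 alone passed the threshold at 18 hpf.

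The 4 named models belong to 24 that a rule took from this comparison: the 12 of smallest unadjusted p in each direction, among models of at least 5 CPM in one group whose libraries did not overlap. They were chosen by these values, which are therefore a description. Libraries without overlap were common, since 2000 models, 16.7% of those tested, were higher and 1865, 15.6%, were lower in both Tcf libraries than in both control libraries. The 12 lower models had mean control levels of 5.12 to 237 CPM and mean Tcf levels of 0.237 to 157 CPM, with a median log2 fold change of -0.89 against 0.01 over all tested models. The 12 higher models had control levels of 1.19 to 562 CPM and Tcf levels of 8.12 to 812 CPM, with a median log2 fold change of 0.89. In each set, 5 of the 12 were past 2-fold. All 12 kept their direction when any of the 4 libraries of 18 hpf was left out. The rule of no overlap largely ensures this, so it says nothing of stability.

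Some of these differences rested on 1 control library. The largest fitted fall of the 24, by 5.25 on the log2 scale (SE 1.17, adjusted p = 0.717, edgeR), belonged to a model counted 156 and 22 times in control and 4 and 0 times in Tcf libraries, where control replicate 1 carried most of the counts. The third smallest p among lower models belonged to one with control levels of 22.1 and 13.0 CPM and Tcf levels of 2.25 and 2.76 CPM. Its log2 fold change was -2.81 (SE 0.49, edgeR adjusted p = 0.351). This model was called by DESeq2 (adjusted p = 0.000146) and, at 15 hpf, also had lower levels in both Tcf libraries, at 4.13 and 9.65 CPM against 20.8 and 11.7 CPM. The largest fitted rise, 2.71 on the log2 scale (SE 0.66, adjusted p = 0.878), came from control counts of 16 and 5 and Tcf counts of 45 and 87.

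The levels at 15 hpf stand beside these for comparison. Over the 12 lower models, the median of the group means at 15 hpf was 44.6 CPM for control and 28.7 CPM for Tcf libraries, and at 18 hpf it was 118 CPM for control and 63.8 CPM for Tcf libraries. Over the 12 higher models it was 48.3 and 50 CPM in control and Tcf libraries at 15 hpf, and 14.5 and 29.8 CPM at 18 hpf. The median level of the lower set was thus above that of 15 hpf under both guides, and that of the higher set below it, with the control libraries at 18 hpf farther from 15 hpf than the Tcf libraries. The values of 18 hpf selected these models, so their distance from 15 hpf is not independent of the choice. Medians across models also do not give the change of each model. In the lower set, the control means of KH.C6.71 and KH.C4.404 were lower at 18 than at 15 hpf.

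The difference between guides at 15 hpf was not used to choose the 24, although the libraries of 15 hpf entered the filter on low counts, the scaling and the estimate of spread behind the p-values that ranked them. The sign of the guide difference was the same at 15 hpf for 15 of them, 62.5%, against 49.7% of all 11970 tested models and 44.7% of the 459 with an unadjusted p under 0.05 at 18 hpf. Models share libraries and are not independent replicates. Of the 12 lower models 7, and of the 12 higher ones 8, had the same sign. In each set 4 also had libraries without overlap at 15 hpf. The share of all tested models without overlap at 15 hpf was not worked out, so no conclusion is drawn from these 4. The interaction had an unadjusted p under 0.05 for 8 of the lower and 9 of the higher models, and an adjusted p of 0.27 or more for all 24 (edgeR). The interaction contains the difference at 18 hpf that chose these models, so its unadjusted p is not independent of the choice. The share of all tested models with such an unadjusted p was not worked out. The counts of 8 and 9 therefore do not say that the guide difference of these models changed with time.

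**Figure D3:**
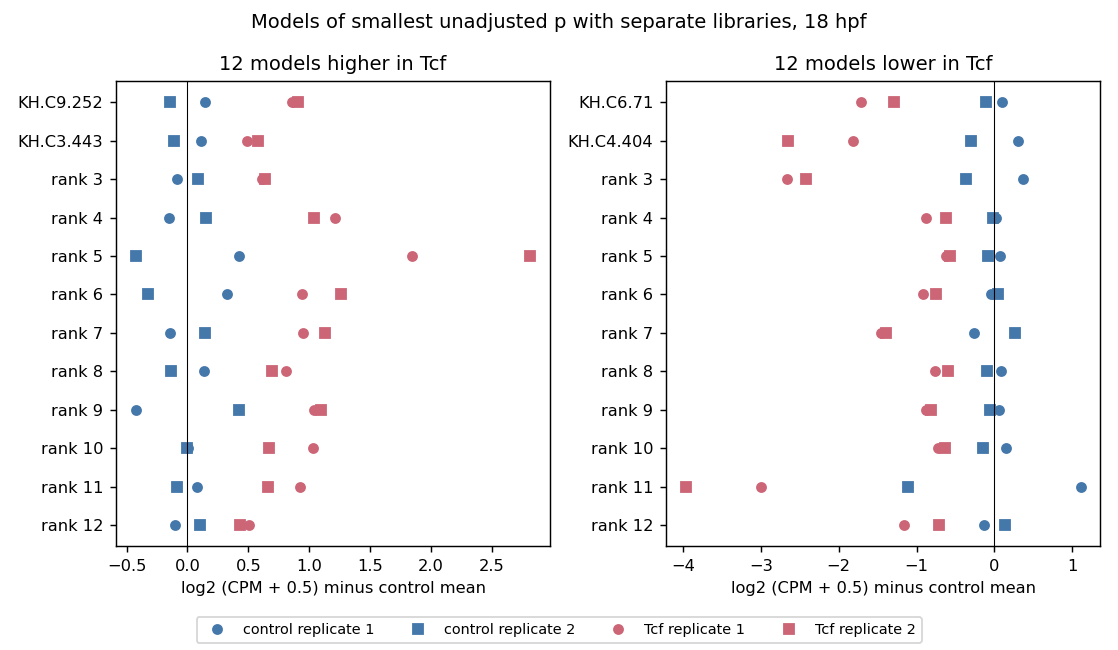
Log2 (CPM + 0.5) of each 18 hpf library minus the mean of the 2 control libraries, for the 12 models of smallest unadjusted p in each direction (control blue, Tcf red, circles replicate 1, squares replicate 2). By the rule the colours do not overlap in any row; the spread within a guide differs widely between rows, and KH.C6.71 is the one call.

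Differences between libraries of different guides were about as wide as those between replicates. In a comparison of single libraries, 1113 of the 11970 models (9.3%) differed by at least 2-fold between the 2 control libraries and 1137 (9.5%) between the 2 Tcf libraries. The 4 pairs of different guides ranged from 925 (7.73%) to 1361 (11.4%). Pearson's r of log2 (CPM + 0.5) across models, which are not independent replicates, was 0.970 within control, 0.972 within Tcf and 0.965 to 0.975 between guides. Among the 6582 models of at least 10 CPM, 158 differed 2-fold between the control libraries, 102 between the Tcf libraries, and 104 to 170 between libraries of different guides. For 1401 of these 6582 the difference between the guide means exceeded the difference within both pairs of replicates. How many would do so without a guide difference was not worked out.

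**Figure D4:**
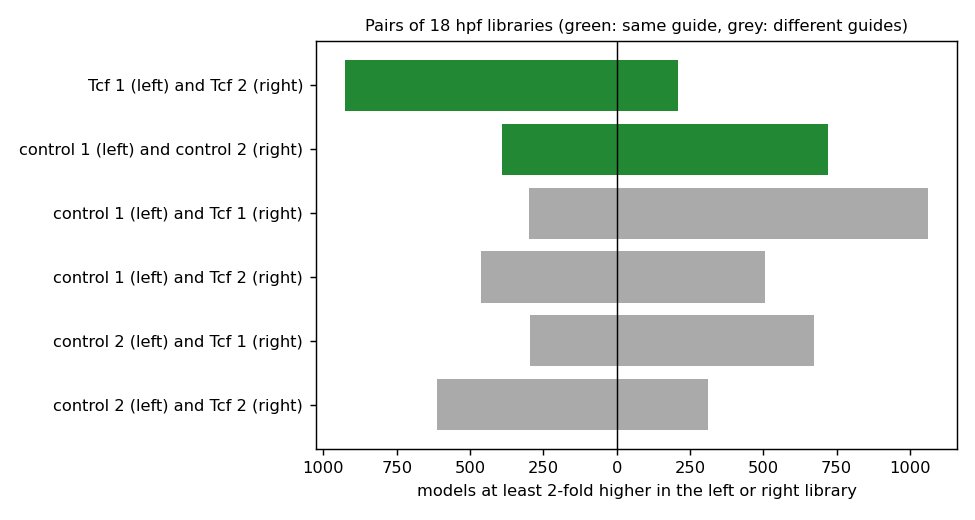
Number of models at least 2-fold higher in one or the other library of each pair at 18 hpf, on log2 (CPM + 0.5), with pairs of the same guide in green and of different guides in grey. The totals of 1113 and 1137 within guides lie inside the range of 925 to 1361 between guides, and Tcf replicate 1 is the library with more high models in each of its 3 pairs.

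The pairs differed in balance more than in number. Tcf replicate 1 was at least 2-fold higher for 1063 and lower for 298 models against control replicate 1, for 673 and 295 against control replicate 2, and for 927 and 210 against Tcf replicate 2. Control replicate 2 was at least 2-fold higher for 721 and lower for 392 models against control replicate 1, and for 613 and 312 against Tcf replicate 2. Tcf replicate 2 was higher for 505 and lower for 463 against control replicate 1. Under 5 CPM, 447 models had a fitted level at least 2-fold higher and 161 at least 2-fold lower in Tcf libraries, of 3711 tested. Whether the balance of any 1 library gave this lean was not tested. Without control replicate 1 the higher models also outnumbered the lower. Without Tcf replicate 1 the numbers turned round, to 389 higher and 715 lower of 4141. Without Tcf replicate 2 they were 1106 higher and 305 lower of 4444, and without control replicate 2, 1273 and 263 of 4471.

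Models with more counts leaned the other way. At 20 CPM and over, 31 of 4971 models were at least 2-fold lower and 7 at least 2-fold higher in Tcf libraries, and of those with an unadjusted p under 0.05, 154 were lower and 73 higher. Without Tcf replicate 1 the latter numbers were 64 lower and 66 higher, while 30 models were at least 2-fold lower and 11 at least 2-fold higher. Without control replicate 2 they were 421 and 77, without control replicate 1 they were 107 and 76, and without Tcf replicate 2 they were 173 and 46. With upper quartile scaling 126 were lower and 94 higher, and leaving out control replicate 1 or 2 of 15 hpf gave 212 lower beside 73 or 75 higher. Without Tcf replicate 1 the lean to lower values was thus absent from the count by unadjusted p and present in the count by 2-fold change. KH.C6.71 was the only one of these models past the adjusted threshold. In the reported fit, an unadjusted p under 0.05 was found for 4.47% of models from 20 to 100 CPM. It was found for 4.89% from 100 to 1000 CPM and for 2.73% above. Each share is below the one this threshold passes when no model differs.

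**Figure D5:**
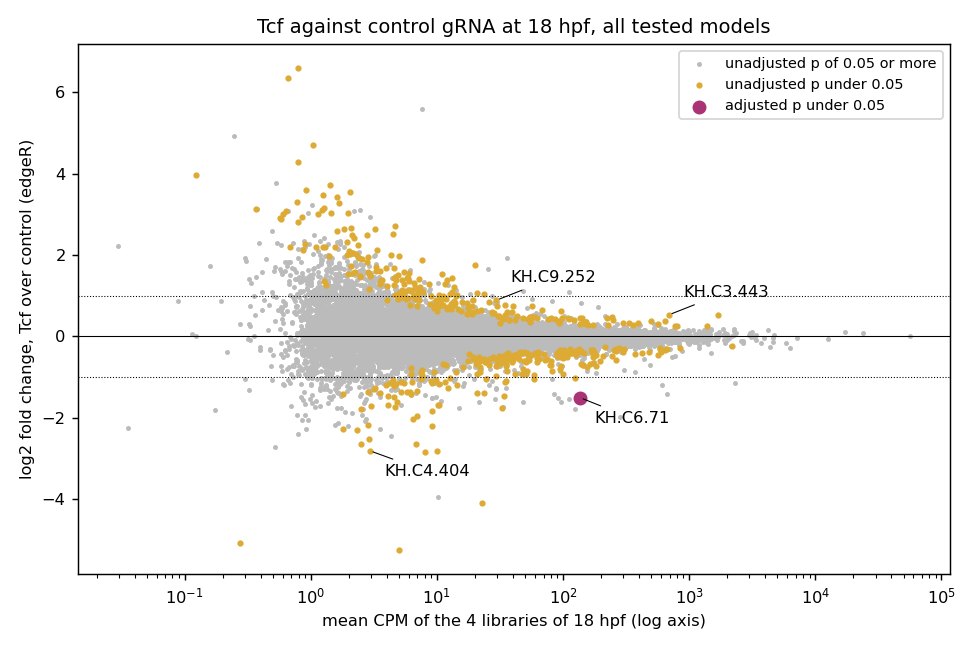
Fitted log2 fold change (Tcf over control gRNA at 18 hpf) of 11970 gene models against their mean CPM on a log axis, with dotted lines at 2-fold. Large fitted changes crowd at low CPM and are mostly upward there, 447 against 161 models under 5 CPM, while the purple point, KH.C6.71, is the one call.

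Over all tested models, 459 (3.83%) had an unadjusted p under 0.05, 239 higher and 220 lower in Tcf libraries. That share of the reported fit is below the one this threshold passes when no model differs. It depended on the fit, at 4.86% with the 4 libraries of 18 hpf alone. Without control replicate 2 of 18 hpf it lay above the share passed when no model differs. In the reported edgeR fit, no model other than KH.C6.71 had an adjusted p under 0.25. DESeq2 called 16 models, 0.134% of those tested, 3 higher and 13 lower, and gave no adjusted p for 3945 others. The libraries of all 16 were without overlap between guides, as were those of 32.3% of all tested models, and 12 of the 16 were among the 24 taken by the rule. A small p from 2 libraries a group largely requires such separation, and the rule ranked models by p in the same libraries. Neither count is thus separate evidence for the calls. Of these calls, those not called by edgeR had an adjusted p of 0.258 or more there. Over all 18 alternatives 25 models were called at least once, 21 lower and 4 higher, and 4 models were called by 3 or more, of which 3 were lower. Only KH.C6.71 was called by more than 3.

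The data also bound the size of the difference for many models. The unadjusted 95% interval of the log2 fold change lay within a 2-fold change in both directions for 6115 models, 51.1% of those tested, and within 1.5-fold for 2916, 24.4%. The share depended on the level. Within 2-fold lay 1.27% of the models from 1 to 5 CPM, where the median SE was 0.70, and 43.6% of those from 5 to 20 CPM, with a median SE of 0.37. It was 91.2% from 20 to 100 CPM, 97.1% from 100 to 1000 CPM and 98.2% of the 110 models above, with median SEs of 0.21, 0.14 and 0.11. Below 5 CPM, then, a 2-fold difference was mostly not resolved in these libraries.

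The most abundant models were bounded most closely. Of the 100 with the highest CPM, from 1091 CPM upward, the interval lay within 2-fold for 98 and within 1.5-fold for 89. Of the 100, 3 had an unadjusted p under 0.05, 2 higher and 1 lower, and none passed the threshold. The largest fitted change among them, -1.15 on the log2 scale (SE 1.30, unadjusted p = 0.423, adjusted p = 1, edgeR), came from a model that varied within both guides. Control replicates 1 and 2 had 4990 and 1337 CPM and Tcf replicates 1 and 2 had 832.6 and 2021 CPM, and at 15 hpf it stood at 1706 CPM in Tcf replicate 2 and at 169.2 to 189.4 CPM in the other libraries.

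Transcripts found under one guide alone were few. There were 4 models with 0 counts in both control libraries and at least 5 in both Tcf libraries. Setting the control group to 3 counts in all makes them 4.38-fold to 8.76-fold higher. One model had the reverse pattern, 4.61-fold lower when the Tcf group is set to 3 counts. These values allow for counting error in the group without counts only, and not for that of the other group. Reads without molecular identifiers are also not independent molecules. Only 1 of these 5 models passed the filter on low counts, and it was not called.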

How the data were processed

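RNA of sorted trunk ventral cells was sequenced as SMART-Seq v4 and Ovation Ultralow libraries, per the labels' protocols. The deposited values are whole-number read counts per KH gene model, 1 table per library, not normalized. TopHat2 2.0.12 and featureCounts are named, per the submitters' processing notes. Genome build, strand setting and handling of multiply mapped reads: not given in the sources used here. How reads of overlapping or nearly identical models were counted is therefore not known.

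Samples were grouped by title. The deposited counts went into edgeR 4.0.16 unchanged, in R 4.3.3 with limma 3.58.1. filterByExpr (minimum count 10) kept 11970 models, which hold 99.8% to 99.9% of the counts of each library of 18 hpf. TMM factors scaled the libraries. Means of 4 groups were fitted to all 8 libraries, because 2 libraries a group estimate the spread poorly, and the contrast at 18 hpf was tested with the robust quasi-likelihood F test and Benjamini-Hochberg adjustment over all tested models (calls at 0.05). Each SE is the absolute log2 fold change over the square root of its F statistic, and intervals are unadjusted. Alternatives used DESeq2 1.42.0, limma-voom with quality weights, other scalings and filters, single libraries left out and a replicate term. The tests were checked on simulated data. With 2 libraries against 2 an exact permutation p cannot fall below 0.333. Replicates were not duplicates: the chi-square statistic of their counts over its degrees of freedom was 17.0 in control and 8.82 in Tcf libraries.

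The named models are called models and, within each direction, those of smallest unadjusted p of at least 5 CPM in one group and with no overlap, limited to 2 a direction because no source pairs identifiers with names. Planned gene lists and marker lists could not be applied. The comparison, the lists and the rule were chosen with earlier results of these data known.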

Additional observations from a re-analysis of the deposited data

Results flagged for a closer look

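KH.C3.443 drew attention because the Tcf libraries lay above both control libraries at 18 hpf and below both at 15 hpf. The difference between the times was 0.87 on the log2 scale (SE 0.16), with an unadjusted p of 0.000143 and an adjusted p of 0.285 (edgeR's quasi-likelihood test over all tested models), so it fails the correction. Over 17 alternatives the value ran from 0.73 to 0.98, and the adjusted p from 0.0035 with DESeq2 to 0.879.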

How the results depend on the processing

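The comparison at 18 hpf called 1 model with edgeR, 0 with the 4 libraries of 18 hpf alone (563 at an unadjusted p under 0.05), 0 without robust moderation (446) and 16 with DESeq2 (355). Leaving out 1 library gave 0 to 6 calls, 0 without Tcf replicate 1 of 18 hpf (286 at an unadjusted p under 0.05), 6 without either control replicate of 18 hpf and 2 without either control replicate of 15 hpf. A group left with a lone library is assumed to vary like the others. The other 8 alternatives, among them limma-voom, 2 other scalings and 2 other filters, gave 1 call. The cause of these shifts was not tested. A term for the replicate number, a replicate block within each time, gave 3 calls, KH.C4.404 among them (adjusted p = 0.048). Labels do not say that the numbers mark pairs, and deviations of same-numbered libraries from their group means correlated at -0.163 at 18 hpf and 0.0466 at 15 hpf. Per the file headers, the numbers of the 2 control libraries of 15 hpf are exchanged relative to the titles used here, which would turn the sign of the value at 15 hpf; a block with the header numbers was not run. With the numbers of the Tcf libraries exchanged at 18 hpf, an alternative chosen after seeing the data, 2 models were called. Models with an unadjusted p under 0.05 numbered 838 without control replicate 2 and 286 without Tcf replicate 1 of 18 hpf, against 459. Without Tcf replicate 1 the excess of models at least 2-fold higher under 5 CPM reversed, from 286 to -326 (range with 1 library left out -326 to 1010), and the excess of higher over lower models at 20 CPM and over with an unadjusted p under 0.05 went from -81 to 2 (range -344 to 2). No fold change or interaction of a named model changed sign under any alternative. For the fold changes with a library left out, the choice of models without overlap largely ensures this. Models under 5 CPM had the widest intervals; depth, cell input and replicate spread were not separated. Other scalings moved the median log2 fold change of all models to between -0.003 and 0.037.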
